A study of Homo sapiens with 4 samples.

Results

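The 10 loci described here encode the AP-1 transcription factors and other immediate early genes: JUN, JUNB, JUND, FOS, FOSL1, FOSL2, ATF3, MYC, EGR1 and KLF6. Accessibility at these loci was read from ATAC-seq peak lists, in which a peak is a stretch where a transposase cut the DNA more often than in the surrounding sequence. A member peak was any peak that overlapped 1 of these genes in the hg19 build, extended by 10 kb on either side. By this rule 51 of the 78744 peaks in the 8 lists were members, 15 narrow and 36 broad. Per the file headers, the narrow lists come from short, nucleosome-free fragments and the broad lists from fragments of every size.

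The libraries came from OVSAHO, an established ovarian cancer cell line. The test cells, named OVSAHO-A2-siA4, carried stably raised SMARCA2 together with knocked-down SMARCA4, and those of the control group, named OVSAHO-Ctrl-siNC, had the genotype label WT. SMARCA2 and SMARCA4 are the alternative ATPases of SWI/SNF chromatin remodelling complexes. Both groups received carboplatin, a platinum drug that damages DNA, at 25 µM for 2 days, so all 4 libraries show drug-treated cells. There were 2 libraries per group, called test 1, test 2, control 1 and control 2. The labels do not say whether replicates were separate cultures, nor how SMARCA2 was raised or how far either gene changed. Gene expression was not analysed here.

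AP-1 is a dimer of a JUN family protein with another JUN protein, a FOS family protein or an ATF family protein, and it binds the short site TGACTCA or the related cAMP response element TGACGTCA. JUN, FOS, EGR1, ATF3, MYC and KLF6 are called immediate early or early response genes because growth factors, stress kinases or DNA damage can switch them on within minutes to hours from promoters that are already poised. Serum response factor, which binds the serum response element, controls several of them.

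Promoters are shown first, for genes whose starts carried a peak in 2 or more libraries. RefSeq promoter windows (GRCh38.p14, 250 bases before to 50 after the start) matched 8 of the 10 genes, in 9 windows, since ATF3 had 2. FOSL1 and MYC had no entry. The 250 bases before the start are printed 5′ to 3′ on the gene's own strand for the 4 genes with narrow peaks at the start (JUN, JUND, FOSL2 and KLF6) and for FOS and EGR1, which had broad peaks alone. The JUNB promoter is not printed, since its start had a peak in 1 library. Capitals mark TGACGTCA in JUND, serum response elements in EGR1 and TGACATCA in JUN and KLF6.
JUN chr1:58784048-58784297 strand -: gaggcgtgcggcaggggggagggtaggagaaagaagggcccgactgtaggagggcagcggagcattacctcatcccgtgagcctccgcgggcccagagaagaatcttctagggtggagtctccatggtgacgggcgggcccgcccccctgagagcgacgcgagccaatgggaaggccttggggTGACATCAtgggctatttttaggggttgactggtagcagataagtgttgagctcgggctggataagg
JUND chr19:18281623-18281872 strand -: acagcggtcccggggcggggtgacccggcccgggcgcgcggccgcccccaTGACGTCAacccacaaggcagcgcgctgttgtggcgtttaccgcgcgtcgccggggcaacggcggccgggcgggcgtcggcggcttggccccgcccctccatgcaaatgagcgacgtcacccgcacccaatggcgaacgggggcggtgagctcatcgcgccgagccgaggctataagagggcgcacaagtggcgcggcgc
FOSL2 chr2:28392608-28392857 strand +: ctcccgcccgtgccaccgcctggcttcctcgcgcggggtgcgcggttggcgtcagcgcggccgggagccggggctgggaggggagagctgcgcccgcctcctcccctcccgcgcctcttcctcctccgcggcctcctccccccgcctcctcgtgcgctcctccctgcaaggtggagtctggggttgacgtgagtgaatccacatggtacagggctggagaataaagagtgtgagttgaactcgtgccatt
KLF6 chr10:3785210-3785459 strand -: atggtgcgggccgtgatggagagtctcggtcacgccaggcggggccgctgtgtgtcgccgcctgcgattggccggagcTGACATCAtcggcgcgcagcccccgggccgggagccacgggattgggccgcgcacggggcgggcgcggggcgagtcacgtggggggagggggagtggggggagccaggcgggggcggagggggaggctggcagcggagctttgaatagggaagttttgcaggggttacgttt
FOS chr14:75278578-75278827 strand +: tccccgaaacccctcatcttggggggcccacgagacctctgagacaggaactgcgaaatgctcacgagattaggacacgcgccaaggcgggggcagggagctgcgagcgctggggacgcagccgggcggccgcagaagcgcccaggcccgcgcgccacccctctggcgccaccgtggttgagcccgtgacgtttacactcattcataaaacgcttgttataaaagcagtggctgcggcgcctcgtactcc
EGR1 chr5:138465229-138465478 strand +: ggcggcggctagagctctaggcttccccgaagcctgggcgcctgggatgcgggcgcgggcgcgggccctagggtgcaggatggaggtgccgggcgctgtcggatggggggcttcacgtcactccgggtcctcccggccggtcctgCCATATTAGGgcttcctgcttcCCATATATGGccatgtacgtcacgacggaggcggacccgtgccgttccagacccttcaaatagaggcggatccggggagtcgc

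Both strands were searched for TGACTCA, which reads TGAGTCA on the opposite strand, for TGACGTCA and for the serum response element in the whole 300-base windows. TGACTCA, the AP-1 site, was found in FOSL2 alone among the members, beginning at base 5 after the start, within the stretch chr2:28392852-28392878 strand + shown with the site in capitals.
FOSL2 site: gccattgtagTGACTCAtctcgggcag
TGACGTCA was found in JUND alone, beginning 200 bases before the start. EGR1 held 2 serum response elements, CCATATTAGG at 105 and CCATATATGG at 83 bases before the start. The shares of all 35116 windows in the table with a match were 4.95% for TGACTCA, 1.85% for TGACGTCA and 1.29% for the serum response element. A match is a match of letters and was not tested for binding. The 7 member genes other than ATF3 with an entry had 62% to 77% G and C and 16 to 49 CpG in these windows, against medians of 58.7% and 14 over the table, while the ATF3 windows had 48% and 46.3% and 4 and 1 CpG. The windows and the peaks belong to different builds, and the start used for each gene can differ between them. Gene lengths in the rule and in RefSeq differed by 1 bp for EGR1, 66 bp for JUN and 2722 bp for FOSL2. How much of this lies at the start was not determined. The sequences and the peak edges were not aligned base by base, so their distances from the start can refer to different points.

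Depth differed between the libraries. The narrow lists rested on 6146272 to 7531794 fragments in test 1, test 2 and control 2 and on 15828837 for control 1. The broad lists rested on 22432549 to 25452784 fragments in the same 3 libraries and on 31515662 for control 1. Control 1 also had shorter fragments, with a mean size of 131 bp over all fragments against 178 to 182 bp, and it had the longest lists, with 10536 narrow and 18577 broad peaks. It stood apart at these loci too, so results are given with and without it.

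Broad peaks marked nearly every locus in test 1, test 2 and control 2, and few in control 1. Of the 10 loci, 9 held a broad peak in each of test 1, test 2 and control 2, and 2 did in control 1. The genome was divided into 123371 windows of the median length of the loci, and a broad peak lay in 6.60% of them for test 1, 10.2% for test 2, 12.5% for control 1 and 9.87% for control 2. Control 1, with more such windows holding a peak than any other library, therefore had the fewest of these loci. The loci are centred on genes, while the equal windows include gene-poor sequence and assembly gaps, and ATF3 and FOSL2 are longer than the median. The number of loci with a narrow peak was 5 for test 1, 3 for test 2, 2 for control 1 and 4 for control 2, against 2.27%, 2.79%, 6.56% and 3.68% of the equal windows.

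**Figure D1:**
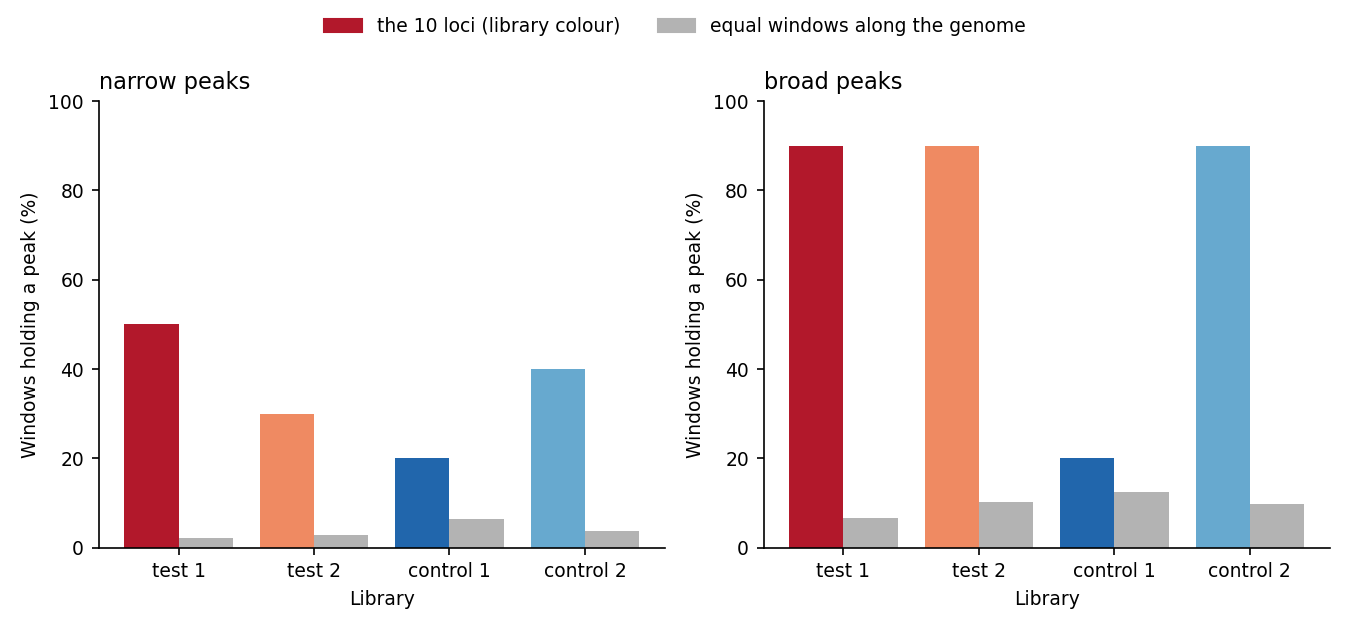
Share of windows that hold at least 1 peak, in percent, for the 10 loci (coloured bars) and for equal windows along the genome (grey bars), by library, in narrow and broad lists. Broad peaks lay in 9 of 10 loci in 3 libraries and in 2 of 10 for control 1, whose grey bars are the highest.

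Of 36 broad peaks in the loci, 22 lay within 1 kb of the start of a member gene as placed by the rule. Of 15 narrow peaks, 11 did. These stretches make up 6.36% of the bases of the loci. The share of all gene starts with a peak was not computed, so these counts describe the members alone. The number of starts with a broad peak, out of 10, was 7 for test 1, 7 for test 2, 1 for control 1 and 7 for control 2. The number with a narrow peak was 4 for test 1, 3 for test 2, 0 for control 1 and 3 for control 2. The 7 starts of test 1 and of test 2 were those of JUN, JUND, FOS, FOSL2, MYC, EGR1 and KLF6, and those of control 2 had JUNB in place of MYC. The start of FOSL1, and that of ATF3 as placed by the rule, had no peak within 1 kb in any library. Other promoters of ATF3 were not located, and a peak at one would count as away from a start.

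**Figure D2:**
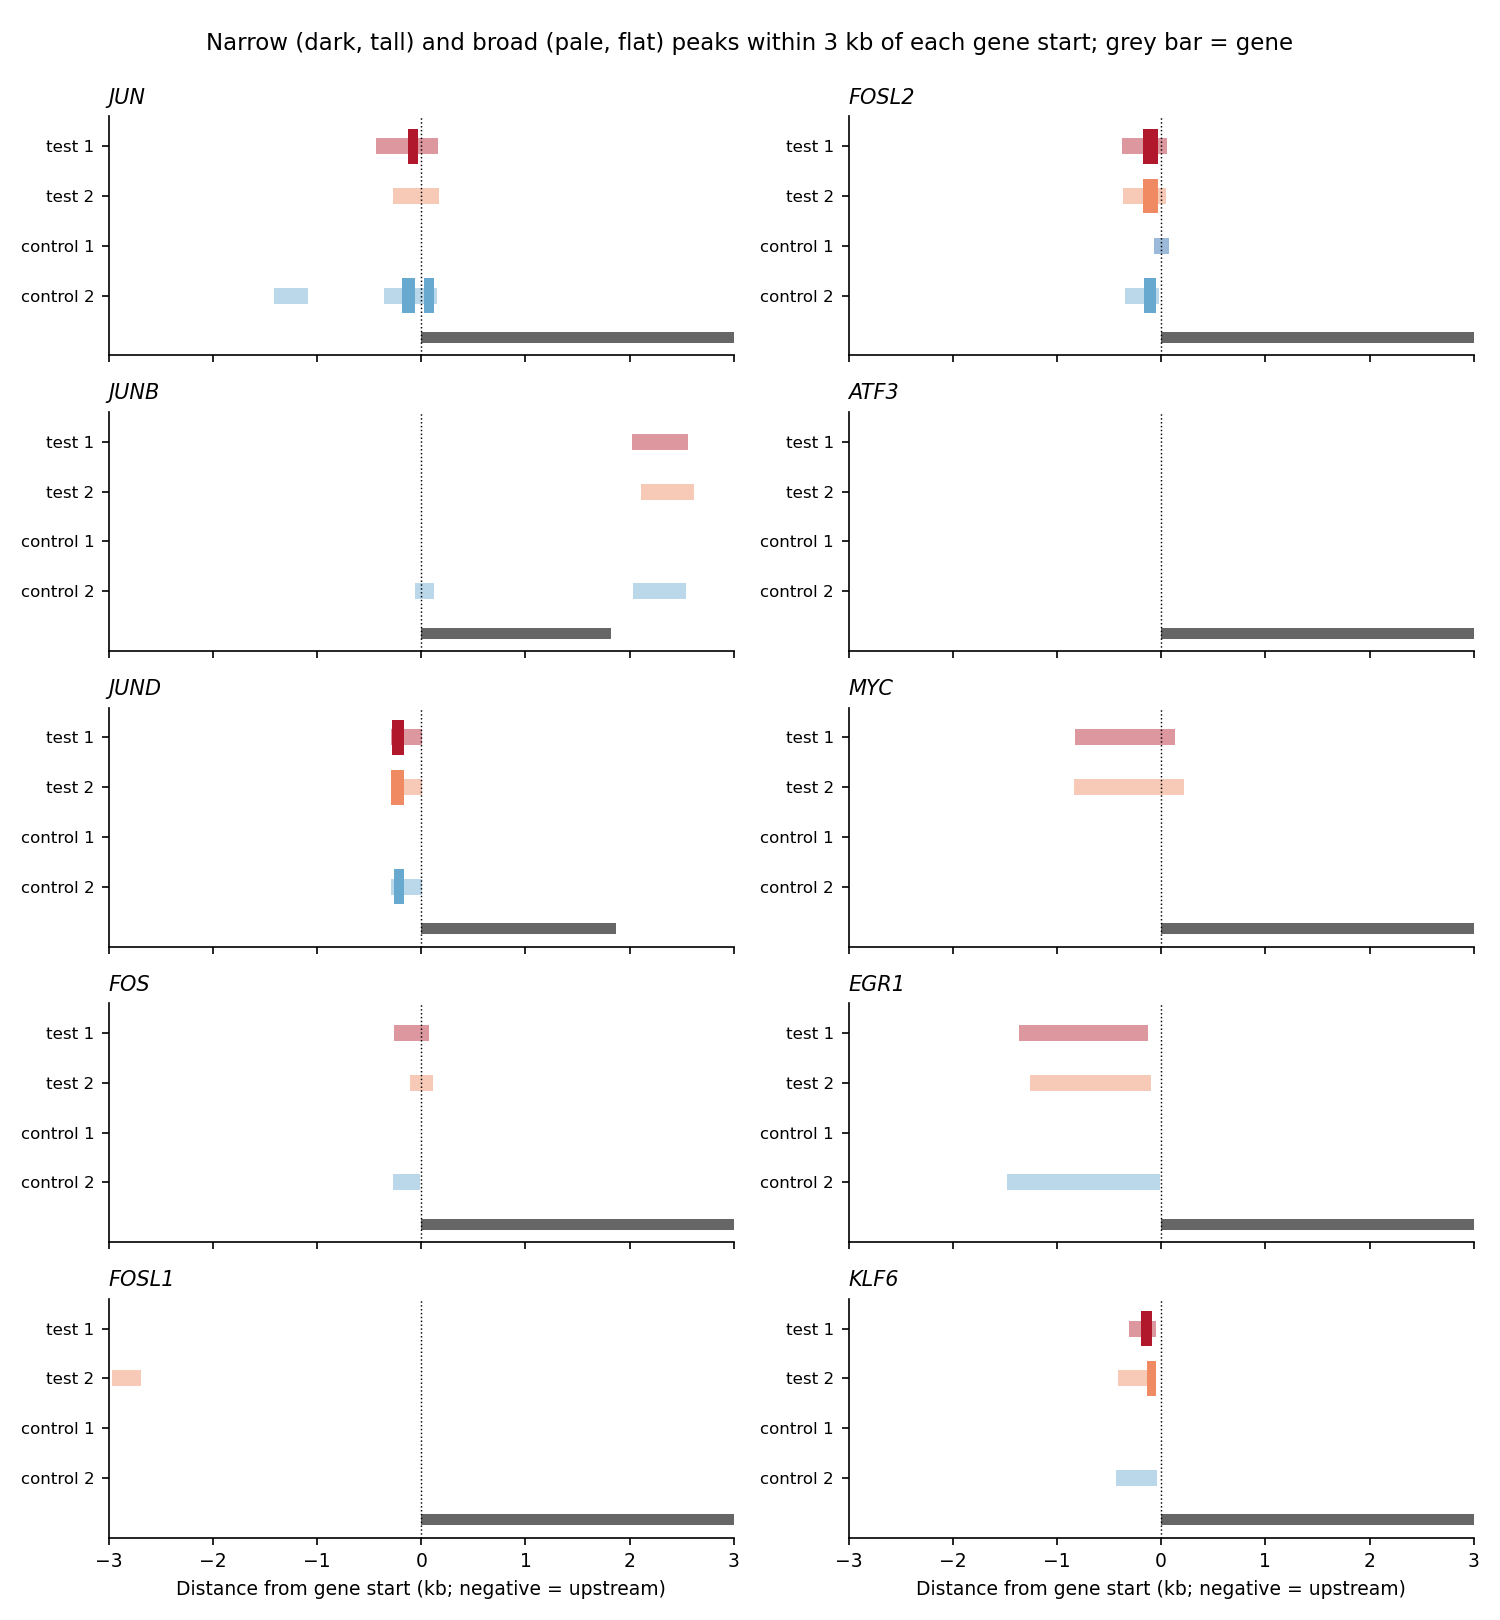
Peaks within 3 kb of each gene start in the 4 libraries, by distance from the start in kb along the gene's direction, with narrow peaks dark and tall, broad peaks pale and flat, and the gene as a grey bar cut at 3 kb. Peaks of test 1, test 2 and control 2 fall at nearly the same places upstream of JUN, JUND, FOSL2, EGR1 and KLF6, and the row of control 1 is empty except at FOSL2.

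JUN encodes the founding member of the family and is itself induced through AP-1 type sites in its promoter. Its gene lies on chromosome 1 at 59246463 to 59249785, on the minus strand. Fold enrichment is the pileup of fragments over the background around the peak, with 1 added to both. The broad peak over the start of JUN had the highest fold enrichment among the member broad peaks of each of 3 libraries. It was 6.73 for test 1, 6.43 for test 2 and 5.34 for control 2, and control 1 had no peak there. These values ranked at percentiles 96.1, 98.3 and 91.4 of their own lists. The 3 peaks spanned chromosome 1 from 59249617 to 59250219 when merged, from 434 bp before to 168 bp after the start. A narrow peak lay just upstream in test 1, with a pileup of 16 fragments and a fold enrichment of 11.003, and in control 2, with a pileup of 8 and a fold enrichment of 5.97. The exact 95% Poisson intervals of these pileups, 9.15 to 26.0 and 3.45 to 15.8, overlapped. Their summits lay 77 and 100 bp upstream of the start. Control 2 had a second narrow peak, 67 bp inside the gene at its summit, with a fold enrichment of 5.29, and test 2 had no narrow peak in the window despite the second highest broad value. Control 2 had another broad peak from 1091 to 1417 bp upstream, with a fold enrichment of 2.76, near the bottom of its list (percentile 3.36).

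JUNB, a JUN protein that often restrains growth, lies on chromosome 19 at 12902310 to 12904125. Its start carried a broad peak in control 2 alone, with a fold enrichment of 2.67. A broad region just past the end of the gene, at 12904333 to 12904932, was called in 3 libraries, with a fold enrichment of 2.92 for test 1, 2.51 for test 2 and 3.58 for control 2. It was weak for its list in both test libraries (percentiles 3.72 and 1.69) and near the middle in control 2 (42.0). Test 2 and control 1 shared a broad region upstream at 12896143 to 12896532, with fold enrichments of 2.54 and 2.87. No narrow peak was called in the window in any library. Protein-coding neighbours within the 10 kb flanks in the RefSeq annotation are HOOK2, PRDX2 and THSD8, so a peak away from the start need not belong to JUNB.

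JUND, the JUN protein that most cells express steadily, lies on chromosome 19 at 18390563 to 18392432, on the minus strand. Narrow and broad peaks at its start were both called in 3 libraries, at nearly the same positions. The broad peak at its start had a fold enrichment of 5.27 for test 1, 5.25 for test 2 and 4.62 for control 2, with edges that differed by at most a few bases at the gene end of the peak (18392427, 18392428 and 18392424). The narrow peak inside it had 5.31, 6.22 and 6.98 in the same order, on pileups of 8, 9 and 11 fragments. The order of test and control 2 was thus opposite in the narrow and broad lists, and the intervals of the narrow pileups overlapped (3.45 to 15.8, 4.12 to 17.1 and 5.49 to 19.7). The summits lay 201, 218 and 203 bp upstream of the start. Control 1 had no peak in the window.

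FOS encodes the partner of JUN in classical AP-1. It lies on chromosome 14 at 75745481 to 75748937. A broad peak at the start was called in 3 libraries, with a fold enrichment of 4.73 for test 1, 3.52 for test 2 and 4.25 for control 2. Control 2 lay between the test libraries, so the groups overlapped. The peak in test 2 was the shortest reaching upstream, 111 bp against 258 and 274 bp. No narrow peak was called in the window in any library, nor any peak in control 1.

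FOSL1, which encodes FRA1, a FOS protein linked to invasive carcinoma cells, lies on chromosome 11 at 65659607 to 65667884. No region there was called in more than 1 library. Test 2 had a broad peak 2693 bp upstream of the start (fold enrichment 3.39), control 2 had one downstream of the gene at 65655888 to 65656128 (3.63), and control 1 had a narrow peak at the far edge of the window, at 65650012 to 65650083 (4.55). The RefSeq annotation places CTSW, FIBP and CCDC85B within 10 kb of this gene.

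FOSL2 encodes FRA2 and lies on chromosome 2 at 28615779 to 28637516. Its start held the only region of the set called as a broad peak in all 4 libraries, at 28615401 to 28615856. The fold enrichment was 5.09 for test 1, 4.64 for test 2, 3.26 for control 1 and 5.20 for control 2. Control 1 was the lowest and control 2 the highest, so the 2 control libraries lay on either side of both test libraries. The control 1 peak also sat lower in its own list, at percentile 24.0 against 80.4, 87.8 and 89.9, and its −log10 q of 1.59 was close to the threshold of 1.30. Narrow peaks at the start were called in the other 3 libraries, with a fold enrichment of 8.62 for test 1, 11.2 for test 2 and 7.29 for control 2, on pileups of 12, 16 and 10 fragments. Both test values were higher than that of control 2, but the pileup intervals overlapped (6.20 to 21.0, 9.15 to 26.0 and 4.80 to 18.4). The summits lay 98, 110 and 109 bp upstream of the start. Control 1 had a narrow peak inside the gene instead, at 28627168 to 28627230, with a fold enrichment of 5.0, which no other library shared. The broad peak of control 1 began 73 bp upstream of the start, where those of the other libraries began 343 to 378 bp upstream.

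**Figure D3:**
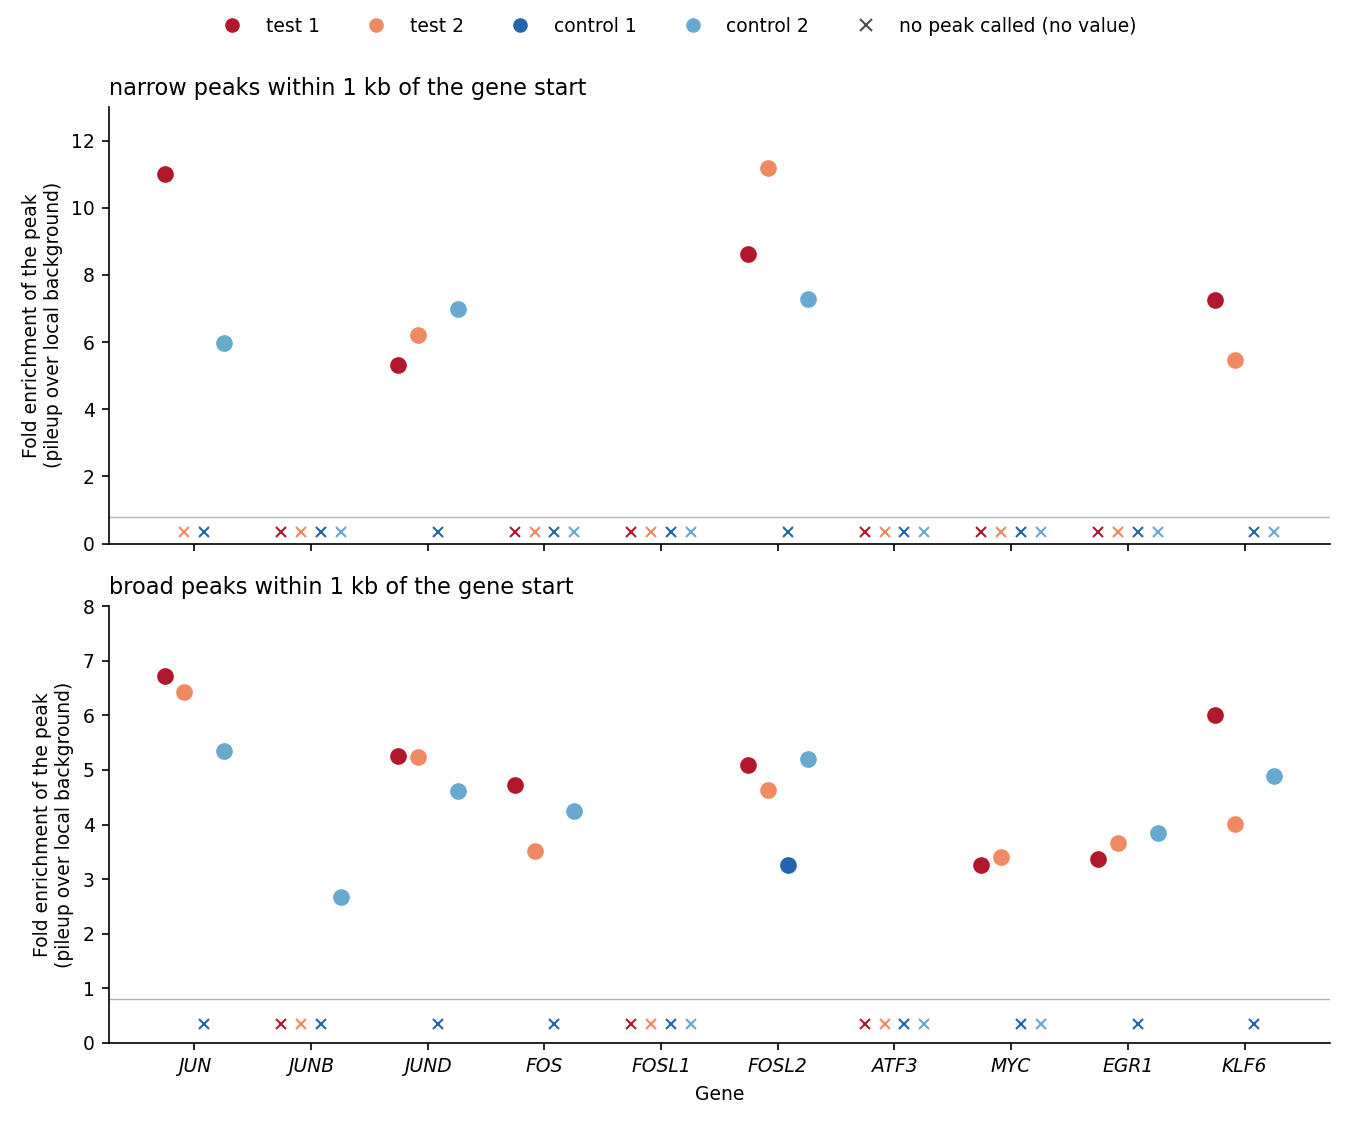
Fold enrichment of the peak within 1 kb of each gene start, by gene and library, in narrow lists (top) and broad lists (bottom), with crosses where no peak was called and so no value exists; where a library had 2 peaks the higher is drawn. In broad lists control 2 lies between the test libraries at FOS and KLF6, below both at JUN and JUND and above both at FOSL2 and EGR1, and control 1 has 1 point in all, at FOSL2.

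ATF3, a stress-induced repressor that pairs with JUN proteins, spans chromosome 1 from 212738676 to 212794119 and is transcribed from more than 1 promoter. Its peaks lay away from the start placed by the rule. A region inside the gene at 212781634 to 212782859, about 43 kb downstream of that start (42958 bp at its near edge), was called in test 1 and control 2. The broad fold enrichment there was 5.0 for test 1 and 3.79 for control 2, and the narrow one 5.62 and 4.57, each narrow peak on a pileup of 6 fragments. This region was thus shared by 1 library of each group and called in neither of the others, and control 1 had no peak in the window at all. Whether this region lies at another promoter of ATF3 was not determined. The lack of a peak at the start placed by the rule therefore does not show that every ATF3 promoter lacked one. The 2 ATF3 promoter windows begin at 212565157 and 212614768 in the other build, further apart than this region lies from that start. An upstream broad region at 212734927 to 212735182 was shared by the same pair, with 3.65 and 3.64. Control 2 alone had a further broad peak inside the gene at 212769547 to 212769933 (3.62). Test 2 had no peak in this window, the only window without a broad peak in that library.

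MYC, a driver of cell growth and a gene often present in extra copies in ovarian cancer, lies on chromosome 8 at 128748315 to 128753680. Its start held the single test-only broad region of the set, shared by test 1 and test 2 and missing in both controls, at 128747479 to 128748535. The fold enrichment was 3.26 for test 1 and 3.40 for test 2, a mean of 3.33 ± 0.10 (SD, n = 2). Both peaks were weak for their lists (percentiles 9.77 and 29.1), with a −log10 q of 2.13 and 2.47. The controls have no value there, since a site below the threshold is not listed, so the size of a difference could not be given. The peaks covered 959 and 1057 bp, from 825 and 836 bp upstream to 133 and 220 bp inside the gene. No narrow peak was called in the window in any library.

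EGR1, a zinc finger factor of the early growth response, lies on chromosome 5 at 137801181 to 137805004. Its broad peaks were wide, from 1165 bp in test 2 to 1237 bp in test 1 and 1471 bp in control 2, against median lengths of 337, 352 and 363 bp in those lists. The peaks lay wholly upstream of the start. The fold enrichment was 3.37 for test 1, 3.65 for test 2 and 3.85 for control 2, so control 2 was the highest of 3 values that lay close together. Control 1 had no peak in the window, and no library had a narrow one. The near edges of the peaks lay 131, 93 and 8 bp before the start in test 1, test 2 and control 2. The 2 serum response elements printed above begin 105 and 83 bases before the start in the other build. By these distances the peak of control 2 spans both, that of test 2 spans CCATATTAGG alone and that of test 1 spans neither. The builds were not aligned base by base and the edges of the test peaks lie close to the elements, so these overlaps were not established.

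KLF6, a zinc finger factor induced by injury and stress, lies on chromosome 10 at 3818188 to 3827473, on the minus strand. Its start held the single test-only narrow region, at 3827526 to 3827665, with a fold enrichment of 7.26 for test 1 and 5.46 for test 2, on pileups of 9 and 6 fragments. The summits lay 128 and 131 bp upstream of the start. The broad lists did not share that split. There the start peak had a fold enrichment of 6.0 for test 1, 4.02 for test 2 and 4.90 for control 2, with control 2 between the test libraries, and control 1 had no peak in the window. The narrow call missing in control 2 thus lay in a stretch that control 2 called as accessible from fragments of every size. Test 1 had another broad peak 9366 bp upstream, with a fold enrichment of 3.62.

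Merging overlapping peaks of the 4 libraries gave 8 narrow and 17 broad regions in the loci. The most frequent broad pattern was a call in test 1, test 2 and control 2 without control 1, which held for 6 of the 17 regions (JUN, JUND, FOS, EGR1 and KLF6 at the start, and JUNB past the gene end) against 10.5% of all 36726 broad regions of the genome. In narrow peaks it held for 2 of 8 (JUND and FOSL2) against 3.82% of 17554. Regions of control 1 alone made up 0 of 17 broad regions against 38.0% of all, and 2 of 8 narrow regions against 49.9%. Regions called in all 4 libraries numbered 1 of 17 in broad peaks against 3.04%, and 0 of 8 in narrow peaks against 3.86%. A test-only call held for 1 narrow region (KLF6) against 1.25% of all and for 1 broad region (MYC) against 1.03%, and control-only calls for 0 regions of either type against 1.25% and 1.24%. With 1 region in each, the test-only share cannot be read against its background. Leaving out 1 library changed the exclusive counts and also their rule. The group with 1 library left then needed a call in that library alone, while the other group still needed both of its libraries. Shares of all regions under these rules were not computed, so the counts describe the members alone. Without control 1, 4 broad and 1 narrow regions were control-only beside 1 test-only region of each type. These counts follow unlike rules, so their order is not read. Without control 2, 7 broad regions were test-only and 0 control-only, and 3 narrow regions were test-only and 2 control-only. Without test 1 or without test 2, 2 broad regions were test-only and 0 control-only. Of 8 broad regions at a start, 7 were called in 2 or more libraries (the exception was JUNB). Of 9 away from a start as placed by the rule, 4 were, namely both JUNB regions outside the gene and 2 ATF3 regions. The same shares over all broad regions were not computed, so these counts describe the members alone.

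Summed over the loci, the groups did not differ by more than the control libraries differed from each other. Broad peaks numbered 11 for test 1, 10 for test 2, 2 for control 1 and 13 for control 2, a mean of 10.5 ± 0.71 in test and 7.5 ± 7.8 in control libraries (SD, n = 2 per group). Control 2 had more than either test library and control 1 far fewer, so the groups overlapped. Narrow peaks numbered 5, 3, 2 and 5 in the same order, with means of 4 ± 1.4 and 3.5 ± 2.1. Bases under broad peaks were 6040, 5073, 382 and 6315, with means of 5556.5 ± 684 and 3348.5 ± 4195. Starts with a broad peak averaged 7 in the test and 4 ± 4.2 in the control libraries, and starts with a narrow peak 3.5 ± 0.71 and 1.5 ± 2.1. Without control 1, control 2 had 2.5 broad peaks and 758.5 covered bases more than the test mean, in place of a test excess of 3 peaks and 2208 bases. Its 7 broad starts then equalled the test mean, and its narrow peaks exceeded it by 1 in place of a test excess of 0.5. The direction for peaks and bases therefore depended on control 1, while starts with a narrow peak stayed lower in control 2, at 3 against 3.5. Without test 1 the narrow peaks also turned, to a control excess of 0.5. No p is given for sums over members chosen with earlier results of these data known, and an exact permutation test of 2 against 2 libraries cannot go below 0.333.

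By their medians, the member peaks were of ordinary to high rank in 3 libraries and of lower rank in control 1, which had 2 of each type. Single broad peaks ranked from percentile 3.72 to 96.1 in test 1, 1.69 to 98.3 in test 2 and 2.51 to 91.4 in control 2. The median percentile of fold enrichment of the broad member peaks within their own lists was 72.8 for test 1, 47.2 for test 2, 15.5 for control 1 and 54.1 for control 2. For narrow peaks it was 72.4, 62.3, 35.5 and 55.1. The 11 narrow peaks at starts rested on 6 to 16 fragments each, so few fragments decided a call. All 13 narrow peaks of test 1, test 2 and control 2 overlapped a broad call of their own library, while 0 of 2 did so in control 1. The same share over all narrow peaks of each list was not computed, so these counts describe the members alone.

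The loci differed in the local background against which MACS2 measured each peak. Recovered from pileup and fold enrichment and divided by the median of its own list, the background of the broad peaks was 2.54 to 2.86 at JUNB, 2.57 to 2.93 at EGR1, 2.26 to 2.34 at JUND and 1.95 to 2.37 at JUN. It was 0.84 to 1.11 at FOS, 0.61 to 1.37 at KLF6 and 1.48 at MYC in both test libraries. A high background lowers the fold enrichment of a given pileup. At EGR1 a pileup of 25.8 for test 1 gave a fold enrichment of 3.37, where at KLF6 a pileup of 22.1 in the same library gave 6.0. At JUNB a pileup of 27.6 for control 2 gave 3.58. The order of loci by fold enrichment is therefore not their order by fragments. What sets these differences in background was not tested. In control 1 the 2 broad member peaks, at JUNB and FOSL2, had 2.54 and 1.21, against 2.67 to 2.86 and 1.73 to 1.96 in the other libraries at those genes.

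**Figure D4:**
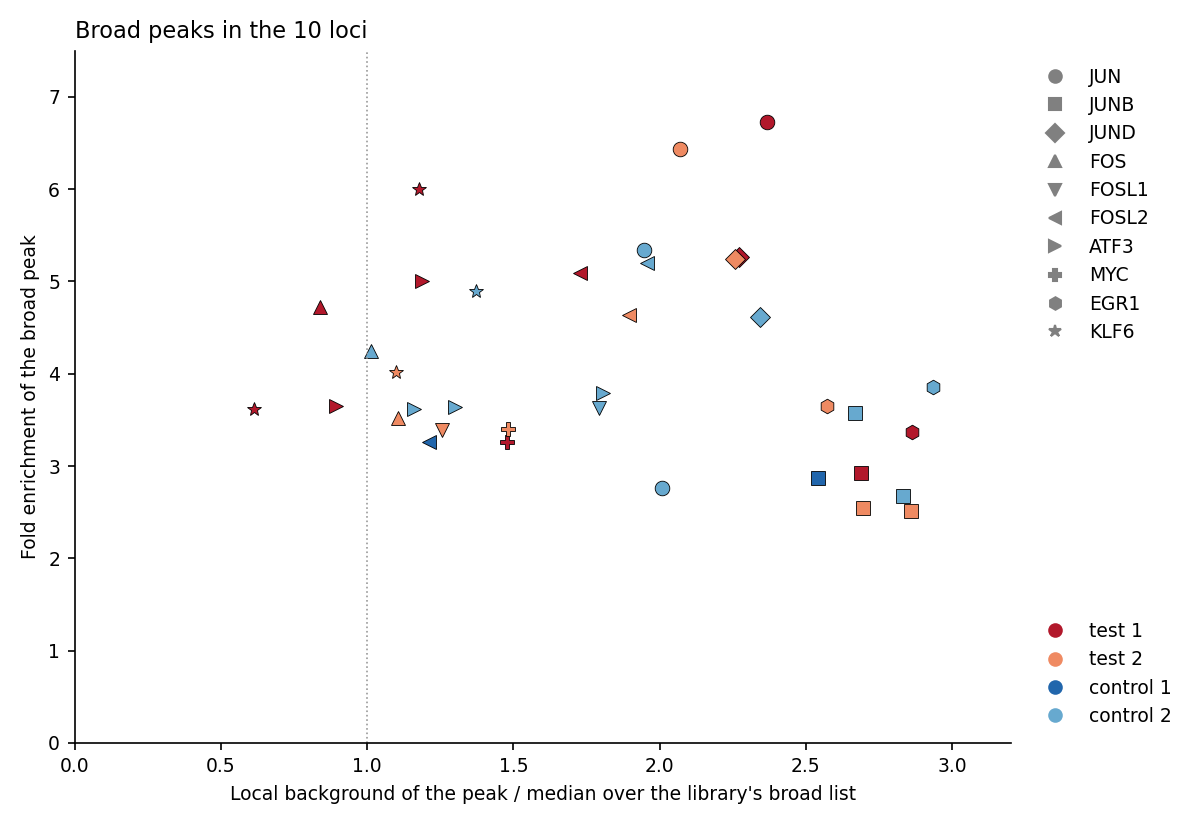
Fold enrichment of each of the 36 broad peaks in the loci against its local background divided by the median of its library's broad list, with 1 marked by a dotted line; shape gives the gene and colour the library. JUNB and EGR1 lie at the right with fold enrichments of 2.51 to 3.85, and KLF6 and FOS lie near 1 with values up to 6.0.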

How the data were processed

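ATAC-seq peak lists of 4 libraries were used, a narrow and a broad list each. Per the file headers, MACS2 2.2.7.1 called peaks library by library, without a control sample, with duplicates kept, at a q of 0.05. The submitters' processing notes name hg19. The deposited pileup is a coverage signal in fragments, the deposited q is on the −log10 scale and the fold enrichment, also as deposited, is the ratio of that pileup to the background around the peak. None is scaled between libraries, so values were ranked within a list and not tested between groups.

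The members and lists were chosen with earlier results of these data known. A gene's start is the end of its locus in the rule, by strand, and the strands of FOSL1 and MYC came from general knowledge. All 10 genes are named, with regions within 1 kb of a start, test-only, control-only or called in all 4 libraries. Other regions were chosen after their values were seen. Peaks sharing 1 bp were merged on chromosomes 1 to 22 and X (on simulated data, 4000 of 4000 regions came out right). Local background was (pileup + 1) / fold enrichment − 1, approximate for broad peaks, whose values are means. Poisson intervals cover counting error only, on pileups not scaled for depth, and their overlap is no test between libraries. Exact permutation tests of the sums were run as planned, and their p-values are not printed. Counts planned at further early response genes and ovarian marker loci were not run, since no hg19 annotation was used here. Alternatives stand in the closing section. Python 3.11.15, numpy 2.4.6, scipy 1.17.1, pandas 2.3.3 and matplotlib 3.10.9 were used.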

Additional observations from a re-analysis of the deposited data

How the results depend on the processing

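Differences are control minus test means. Differences kept their direction, and region counts stayed within 1.5 times, in 81 of 105 recomputed values, the replicate block aside. Another 15 moved and 9 reversed. The 81 include control-only counts that were 0 before and after. They also include all values with 50% of the peak inside or with peaks within 100 bp merged, which equalled the main ones. Most values without control 1 moved or reversed, so the 81 are no measure of stability. With the gene alone and no flank, narrow peaks differed by 1, loci with a narrow peak by 1 and bases under broad peaks by 213.5, each reversed from -0.5, -1 and -2208. With a flank of 50 kb the first 2 were 3 and 0.5. Test-only narrow regions fell from 1 to 0 without a flank, where the KLF6 peak lies outside the gene, and to 0 at a −log10 q of 5 or more, as did test-only broad regions. With 50 kb there were 2 test-only broad regions. Leaving out each library in turn gave differences from -2 to 1 in narrow peaks, -2 to 0 in loci and -3.5 to -0.5 in starts with a narrow peak, -8.5 to 2.5 in broad peaks, -7 to 0 in loci and -6 to 0 in starts with a broad peak, and -5174.5 to 758.5 in bases. Test-only regions ran from 1 to 3 (narrow) and 1 to 7 (broad), and control-only regions from 0 to 2 and 0 to 4, the highest test-only counts without control 2. The group that lost a library needed a call in 1 library only, so these counts follow unlike rules. Narrow peaks also reversed without test 1, to 0.5. A replicate block of equal numbers gives the same differences by construction and is no check of them, -0.5 narrow and -3 broad peaks, -1 and -3.5 loci, -2 and -3 starts and -2208 bases. The labels do not say that the numbers pair libraries, and deviations of equal numbers correlated at -0.02 over narrow and -0.08 over broad regions. Pileups of 6 to 16 fragments limit every narrow call.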

Other observations

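The sequence TGACATCA, a variant of the cAMP response element that is known from the JUN promoter, was searched for after the promoter windows had been seen. It was found in 3 of the 8 member genes with an entry, beginning 67 bases before the start in JUN, 172 in KLF6 and 123 in the first window of ATF3, against 2.61% of all 35116 windows. JUN and KLF6 carried start peaks in test 1, test 2 and control 2, while the start of ATF3 as placed by the rule carried none. The search was chosen by its result, so the count is a description.

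Between 10 and 50 kb from the genes, control 1 had 3 broad peaks around KLF6, where test 1 and test 2 had 1 each and control 2 had 0. Around EGR1, control 2 alone had peaks at that distance, 2 narrow ones. Around MYC the only peak was a narrow one of control 1. These genes were chosen after their values were seen, and other members had peaks at that distance too. Around JUNB, control 2 had 3 broad peaks and test 1 had 1. Around FOSL1, test 1, test 2 and control 2 had narrow and broad peaks, and control 1 had neither. The share of windows along the genome with peaks in such flanks was not computed, so these are single calls.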
